A study of Mus musculus with 12 samples.

Results

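Endothelial cells line the blood vessels of a tumour, and in RNA from bulk tissue their content can be followed through genes that few other cells use. The 10 such genes followed here were Pecam1, Cdh5, Esam, Cldn5, Emcn, Vwf, Tek, Tie1, Eng and Egfl7. They were taken by an exact match of their symbols in the deposited count table, which gave 10 of 39017 genes, and all 10 passed the filter on low counts that left 19370 genes for testing. In bulk tumours, fewer endothelial cells and less RNA per endothelial cell cannot be told apart.

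The tumours came from NIC cells, ErbB2-positive mouse breast cancer cells that lack p66ShcA, the longest protein form of the Shc1 adaptor gene. There were 4 groups of 3 tumours each: p66High aggressive, p66Low aggressive, p66High parental and p66Low parental. The p66High cells were engineered to overexpress p66ShcA constitutively, and the p66Low cells were not. The aggressive cells were populations taken back into culture after serial growth in mammary fat pads, and the parental cells had not been through that selection. For all groups, 250000 cells in PBS and matrigel were injected into a mammary fat pad (the fourth) of FVB/N females, 8 to 12 weeks old. The comparisons ask how the vessel genes of the tumour differ with p66ShcA level, with selection, and with their combination.

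New vessels in a tumour grow from host vessels. Vascular endothelial growth factors act on endothelial receptors to drive sprouting, and angiopoietins act on the receptor Tek to set how stable the vessel wall is. The mature lining is held together by adhesion proteins at the junctions between cells, which several of the 10 genes encode.

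Levels below are CPM, counts per mega-count of library after TMM scaling (trimmed mean of M-values). Total counts ran from 17.4 to 76.1 mega-counts per tumour, so that a count of 3 was worth 0.0394 to 0.173 CPM before TMM scaling. The lowest count of any of the 10 genes in any tumour was 22, for Vwf. Shc1 followed the labels: it had 237, 246 and 774 CPM in p66High aggressive, 61.0, 65.3 and 69.9 in p66Low aggressive, 271, 234 and 223 in p66High parental and 65.0, 59.0 and 69.4 in p66Low parental tumours. The most alike pair of tumours within a group had a chi-square of 19.1 per degree of freedom, so no pair was a repeat of 1 library. In all, 2 libraries of p66Low aggressive tumours and 1 of p66High parental tumours carried genes of lymph node stroma and high endothelial venules. The summed level of 9 such genes was 0.508, 0.0786 and 0.431 CPM in p66High aggressive, 169.7, 246 and 1.61 CPM in p66Low aggressive, 1.398, 0.528 and 55.1 CPM in p66High parental and 1.86, 0.812 and 1.04 CPM in p66Low parental tumours. High endothelial venules are themselves endothelium, and their part in the values of these 3 libraries was not tested, so results that change without them are given both ways.

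The junction genes come first. Pecam1 encodes an adhesion protein of endothelial junctions that leukocytes and platelets also carry. Pecam1 had 31.1, 39.4 and 16.4 CPM in p66High aggressive, 57.9, 72.3 and 25.3 CPM in p66Low aggressive, 49.6, 46.8 and 48.4 CPM in p66High parental and 33.1, 32.9 and 34.2 CPM in p66Low parental tumours. The p66High parental tumours lay above both the p66High aggressive and the p66Low parental tumours with no overlap. Cdh5 encodes VE-cadherin, the main adhesion protein of those junctions. It had 19.4, 25.8 and 10.8 CPM in p66High aggressive, 27.8, 24.3 and 16.5 CPM in p66Low aggressive, 28.5, 18.2 and 24.2 CPM in p66High parental and 20.1, 22.6 and 21.1 CPM in p66Low parental tumours. Its groups overlapped throughout. Esam, another junction adhesion protein, had 15.7, 17.5 and 11.6 CPM in p66High aggressive, 16.2, 14.5 and 10.3 CPM in p66Low aggressive, 21.5, 21.04 and 18.5 CPM in p66High parental and 13.99, 15.2 and 15.9 CPM in p66Low parental tumours. All 3 p66High parental tumours exceeded every other tumour for Esam. Cldn5, a claudin of tight junctions, had 4.67, 6.21 and 1.55 CPM in p66High aggressive, 3.96, 8.61 and 2.43 CPM in p66Low aggressive, 8.59, 10.98 and 6.09 CPM in p66High parental and 4.13, 7.39 and 2.81 CPM in p66Low parental tumours. Its groups overlapped.

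Emcn and Vwf mark the vessel surface and what endothelium secretes. Emcn encodes endomucin, a surface sialomucin. It had 8.48, 8.88 and 6.30 CPM in p66High aggressive, 8.91, 8.89 and 5.17 CPM in p66Low aggressive, 12.5, 12.3 and 11.6 CPM in p66High parental and 8.32, 10.3 and 7.75 CPM in p66Low parental tumours. The p66High parental tumours were again the 3 highest. Vwf encodes von Willebrand factor, which platelets also hold. It had 7.87, 1.61 and 0.949 CPM in p66High aggressive, 9.43, 17.3 and 2.87 CPM in p66Low aggressive, 16.8, 12.3 and 11.7 CPM in p66High parental and 5.40, 4.505 and 3.46 CPM in p66Low parental tumours. Vwf varied most between tumours, with its highest tumour 18.2 times its lowest. It was also uneven within both aggressive groups.

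Tek, Tie1 and Eng encode receptors. Tek is the angiopoietin receptor. It had 5.56, 3.02 and 1.25 CPM in p66High aggressive, 7.97, 11.7 and 1.74 CPM in p66Low aggressive, 16.9, 15.1 and 13.4 CPM in p66High parental and 8.10, 8.52 and 5.95 CPM in p66Low parental tumours. The 3 p66High parental tumours were above all 9 others. Tie1 is the related receptor that pairs with Tek. It had 12.4, 13.98 and 4.92 CPM in p66High aggressive, 13.4, 16.2 and 7.59 CPM in p66Low aggressive, 17.8, 15.7 and 17.4 CPM in p66High parental and 11.4, 13.8 and 10.9 CPM in p66Low parental tumours. The p66High parental tumours did not overlap with p66High aggressive or p66Low parental tumours. Eng encodes endoglin, a co-receptor of the TGF-beta family. It had 16.3, 14.4 and 9.66 CPM in p66High aggressive, 16.4, 19.99 and 9.36 CPM in p66Low aggressive, 22.1, 13.6 and 19.5 CPM in p66High parental and 12.6, 12.1 and 11.9 CPM in p66Low parental tumours. Here the p66High parental tumours were above the p66Low parental tumours but overlapped with the p66High aggressive tumours.

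Egfl7 encodes a protein that endothelial cells secrete into the vessel wall matrix. It had 23.1, 24.0 and 10.9 CPM in p66High aggressive, 31.2, 33.8 and 16.6 CPM in p66Low aggressive, 39.4, 52.8 and 41.0 CPM in p66High parental and 26.8, 28.2 and 26.4 CPM in p66Low parental tumours. The 3 p66High parental tumours were the highest of all 12. Per length of transcript (CPM per kilobase of summed exons), Egfl7 had the highest mean level over the 12 tumours, 8.24, and Vwf the lowest, 0.489, with the other 8 between 1.69 and 6.52.

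**Figure D1:**
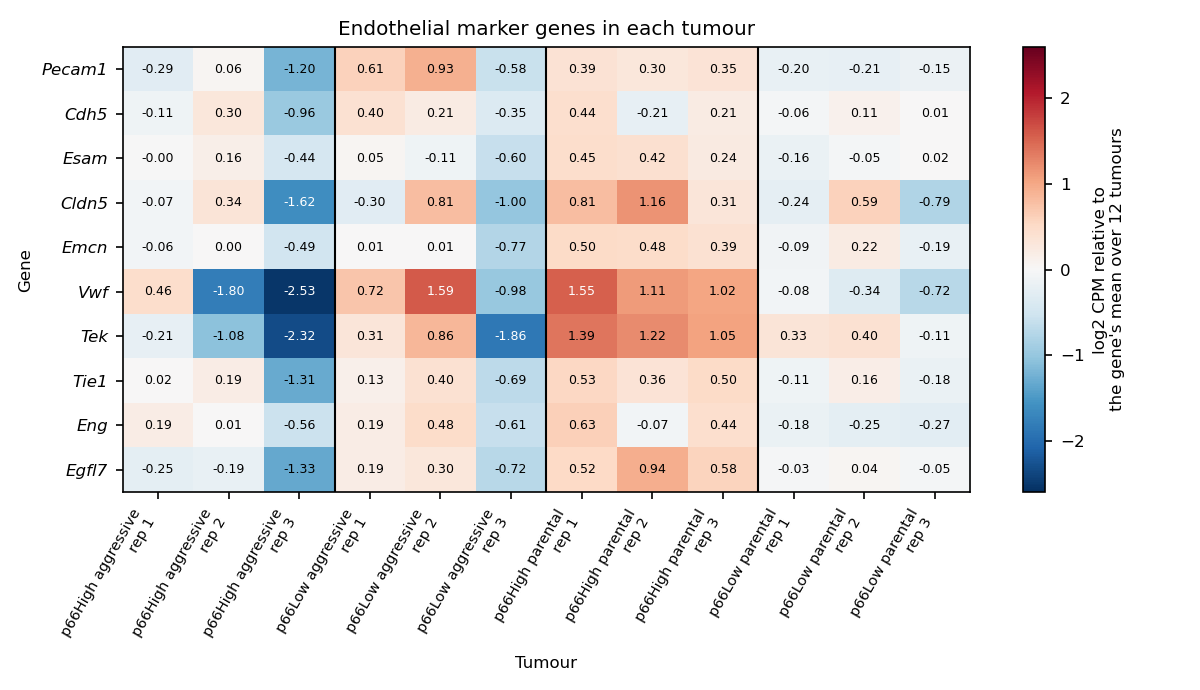
Level of each of the 10 endothelial genes (down) in each of the 12 tumours (across), as log2 relative to the gene's own mean over tumours. Replicate 3 of the p66High aggressive and of the p66Low aggressive tumours is low for all 10 genes, and the p66High parental tumours are high for most.

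**Figure D2:**
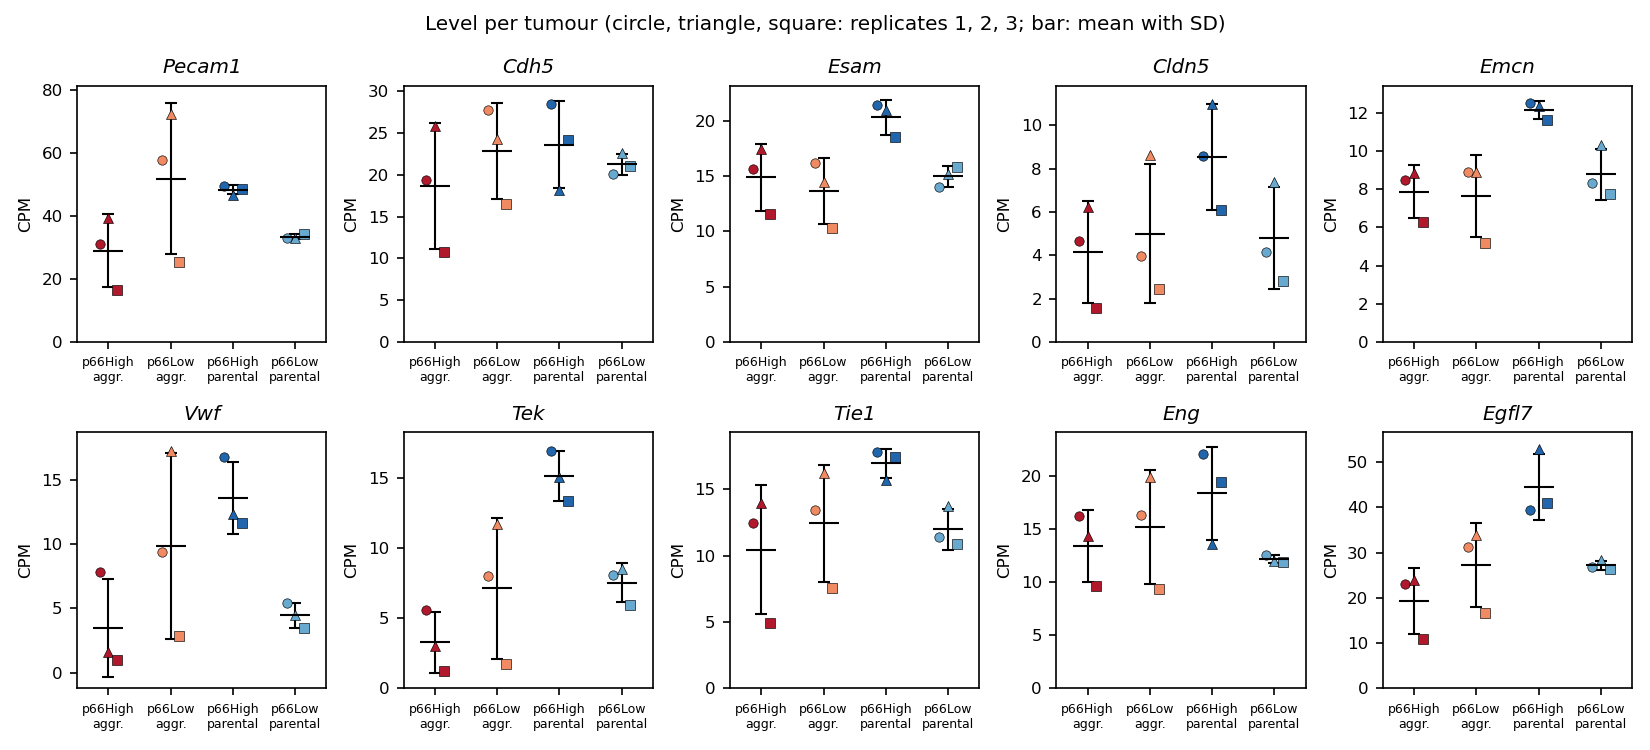
CPM of each of the 10 genes in each tumour, 1 point a tumour, by group, with the group mean and SD (n = 3). The ratio of the highest to the lowest tumour is largest for Vwf (18.2) and Tek (13.5) and smallest for Esam (2.08).

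The promoters of 3 genes are printed because Egfl7 and Tek had the lowest adjusted p-values in the comparison of aggressive with parental p66High tumours and Tie1 stayed closest to the joint level of the 10 genes. RefSeq promoters (GRCm38.p6, 250 bases before to 50 bases after a transcript start) were matched for 6 of the 10 genes, Egfl7, Tek, Tie1, Emcn, Eng and Cldn5, with 8 promoters in all. Capitals mark matches to 2 motifs, on either strand: CAGGAA (or its reverse TTCCTG), a core bound by ETS factors, and AGATAA, a core bound by GATA factors. The Egfl7 promoter shown is that of its middle RefSeq start, at chr2:26583615-26583914 on the + strand. The Tek promoter is at chr4:94739039-94739338 on the + strand, and the Tie1 promoter is at chr4:118489800-118490099 on the - strand, written 5′ to 3′.
Egfl7: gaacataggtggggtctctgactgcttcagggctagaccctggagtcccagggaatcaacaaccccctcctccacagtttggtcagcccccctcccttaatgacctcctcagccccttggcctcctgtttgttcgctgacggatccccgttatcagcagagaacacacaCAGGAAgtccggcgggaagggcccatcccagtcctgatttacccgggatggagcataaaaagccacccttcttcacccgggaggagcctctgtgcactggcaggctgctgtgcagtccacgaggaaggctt
Tek: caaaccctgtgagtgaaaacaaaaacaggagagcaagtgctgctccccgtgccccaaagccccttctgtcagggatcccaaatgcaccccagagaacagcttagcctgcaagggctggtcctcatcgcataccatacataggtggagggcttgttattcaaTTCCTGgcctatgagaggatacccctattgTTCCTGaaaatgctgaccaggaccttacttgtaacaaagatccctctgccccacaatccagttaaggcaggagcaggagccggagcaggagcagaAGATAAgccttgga
Tie1: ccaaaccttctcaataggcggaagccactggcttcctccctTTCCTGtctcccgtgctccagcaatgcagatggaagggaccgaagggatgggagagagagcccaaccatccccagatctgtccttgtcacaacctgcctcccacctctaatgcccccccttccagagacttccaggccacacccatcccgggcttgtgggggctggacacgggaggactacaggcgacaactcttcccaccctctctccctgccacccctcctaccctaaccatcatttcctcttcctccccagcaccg

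CAGGAA was in 6 of the 8 promoters, against 30.6% of all 32851 promoters of the same length. Several of the 8 belong to Egfl7, and by gene it was in 5 of the 6. AGATAA was in 1 of the 8, that of Tek, against 11.2% of all. Neither CCGGAA, the other ETS core, nor GTAAACA, a forkhead core, was in any of the 8, against 14.9% and 3.65% of all. Either ETS core was in 6 of the 8, against 41.4% of all. No printed match overlapped another. A match of letters is not a bound site.

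The Egfl7 gene also hosts a microRNA that endothelial cells use, miR-126. Its sequence is shown because it is read from within this gene, which has the called change described below. The hairpin lies at chr2:26591357-26591429 on the + strand, in an intron of 8 of 19 annotated Egfl7 transcripts, and it touches an exon of 1. Capitals mark the seed, bases 2 to 8 from the 5′ end, and the mature form is at chr2:26591402-26591423.
mmu-miR-126a-3p: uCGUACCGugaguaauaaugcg
The libraries were made from long RNA, so the mature form was not measured. Counts at the Mir126 gene were 1 to 14 per tumour.

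The 10 genes moved together across tumours. Over the 45 pairs, Pearson's r of log2 CPM across 12 tumours ran from 0.597, for Vwf with Esam, to 0.945, for Egfl7 with Tek, with a median of 0.802. Spearman's rho had a median of 0.755, and r within groups, after each group's mean was removed, a median of 0.836. These are descriptions, since the points share library, depth and TMM scaling. Each gene's r with the mean of the other 9 ran from 0.776 for Cdh5 to 0.971 for Tie1. Deviation from the joint level was largest for Vwf (SD 0.816 log2 units) and Tek (0.642), and smallest for Tie1 (0.164) and Egfl7 (0.176).

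The summed CPM of the 10 genes was 145, 155 and 74.3 in p66High aggressive, 193, 227 and 97.9 in p66Low aggressive, 234, 219 and 212 in p66High parental and 144, 155 and 140.3 in p66Low parental tumours. The third p66High aggressive tumour was lowest for 7 of the 10 genes and the third p66Low aggressive tumour for the other 3, and both were among the lowest 3 tumours for all 10. The first p66High parental tumour was highest for 6 and among the highest 3 for all 10. The third p66High aggressive tumour also stood apart in Shc1, above, and its part in the results was not tested beyond leaving it out.

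Outside the 10 genes, the genes most like their joint pattern, of 13043 protein-coding genes with a mean of at least 1 CPM, were Kdr, the main receptor for Vegfa (r = 0.966 over 12 tumours), Ptprb, a phosphatase of endothelial junctions (0.963), Rasip1, which endothelial lumens need (0.953), Prex2 (0.951) and Ccdc80 (0.951). These carry no test, being ranked on the data they describe.

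In parental tumours, all 10 genes were higher with p66High than with p66Low in their fitted means, by a median of 0.56 log2 units, beside -0.01 over all genes tested. No gene passed the threshold of adjusted p 0.05 in edgeR's quasi-likelihood test with Benjamini-Hochberg adjustment over all 19370 genes, where 8.08% of genes were called. At an unadjusted p under 0.05 there were 3, Egfl7, Vwf and Esam, against 22.9% of all genes. DESeq2 and limma-voom each called 0, against 13.1% and 8.42% of all genes. The tumours did not overlap, with p66High higher, for 8 of the 10 genes, all but Cdh5 and Cldn5, against 15.6% of all genes. Vwf averaged 13.6 ± 2.79 CPM in p66High and 4.45 ± 0.973 CPM in p66Low parental tumours (SD, n = 3 each), a log2 difference of 1.61 ± 0.71 (SE; adjusted p = 0.200, edgeR). Tek averaged 15.1 ± 1.77 CPM in p66High and 7.53 ± 1.38 CPM in p66Low parental tumours, a log2 difference of 1.01 ± 0.57 (adjusted p = 0.322). Egfl7 averaged 44.4 ± 7.29 CPM in p66High and 27.1 ± 0.974 CPM in p66Low parental tumours, a log2 difference of 0.71 ± 0.30 (adjusted p = 0.175). The others ran from 0.15 for Cdh5 to 0.85 for Cldn5. The 2 parental groups were tight for most of these genes, and the test took its spread from all 4 groups. The part of that shared spread in the calls was not tested. When only these 6 tumours entered the fit, 4 genes passed, Pecam1, Egfl7, Tek and Vwf, against 8.39% of the 18322 genes tested in that fit.

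In p66High tumours, the 10 genes had lower fitted means after selection, by a median of -0.71 log2 units, beside 0.00 over all genes, and Egfl7 fell. Egfl7 averaged 19.3 ± 7.31 CPM in aggressive and 44.4 ± 7.29 CPM in parental p66High tumours (SD, n = 3 each), a log2 difference of -1.20 ± 0.30 (95% interval -1.85 to -0.54, adjusted p = 0.0386, edgeR). That was 1 called gene of 10, against 5.94% of all genes and 2.82% called lower. Tek had the largest difference, with 3.28 ± 2.17 CPM in aggressive and 15.1 ± 1.77 CPM in parental p66High tumours, a log2 difference of -2.18 ± 0.60 (adjusted p = 0.0555). Vwf averaged 3.48 ± 3.82 CPM in aggressive and 13.6 ± 2.79 CPM in parental p66High tumours, with a log2 difference of -1.93 ± 0.72 (adjusted p = 0.137), and -3.40 without p66High aggressive replicate 1, where it passed, against 3.78% of all genes. The others ran from -1.04 for Cldn5 to -0.34 for Cdh5. Without p66High aggressive replicate 3, Cdh5 was at -0.07 and the median of the 10 at -0.48. At an unadjusted p under 0.05 there were 5, Egfl7, Tek, Emcn, Vwf and Esam, against 22.7% of all genes. Aggressive tumours lay below parental tumours with no overlap for 7, all but Cdh5, Cldn5 and Eng, against 16% of all genes. This comparison uses the same 3 p66High parental tumours as the one before it.

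The Egfl7 call was close to the threshold. Titles of replicates 1 and 2 share a number in the p66High aggressive group and likewise in the p66High parental group, and the labels do not say whether that number is a mouse. With such tumours summed, which left 2 samples in each p66High group, the log2 difference was -1.32 and the adjusted p 0.147 (edgeR). Without the 3 lymph node-rich libraries they were -1.25 and 0.0509. It held in only 3 of the 12 fits that left out 1 tumour: without p66Low parental replicate 2, p66Low aggressive replicate 2 or p66Low aggressive replicate 3. In the other 9 its adjusted p ran up to 0.151, reached without p66High parental replicate 2, and its log2 difference over all 12 ran from -1.38 to -0.92. DESeq2 called Egfl7 and Tek, against 11.7% of all genes, and limma-voom called Egfl7, against 5.08%.

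**Figure D3:**
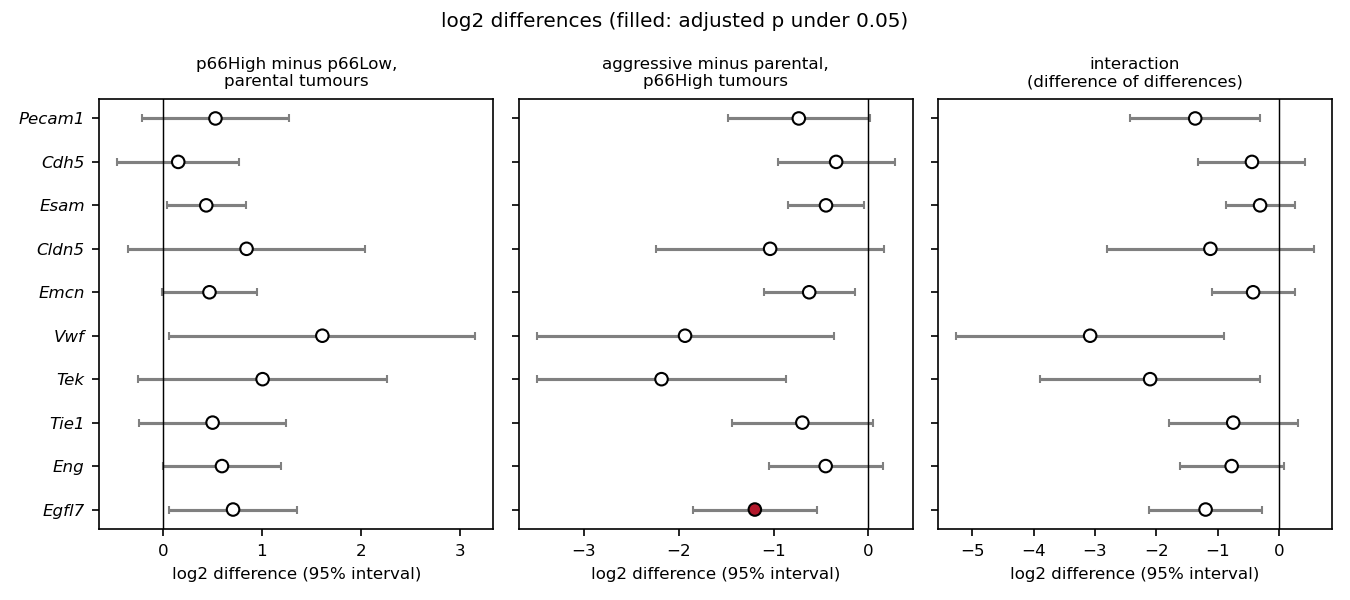
Log2 difference of each of the 10 genes with its 95% interval in p66High against p66Low parental tumours, aggressive against parental p66High tumours, and the interaction of both. Filled points passed the adjusted p threshold, which only Egfl7 did, in the middle panel.

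In p66Low tumours, selection had no common direction: 6 of the 10 genes were higher and 4 lower in aggressive tumours, with a median log2 difference of 0.07, which was -0.19 without p66Low aggressive replicate 2 and 0.35 without replicate 3. None passed (edgeR adjusted p), against 16.6% of all genes, and none had an unadjusted p under 0.05, against 30.9%. DESeq2 and limma-voom each called 0, against 21.9% and 15.5% of all genes. Pecam1 averaged 51.8 ± 24.1 CPM in aggressive and 33.4 ± 0.735 CPM in parental p66Low tumours, a log2 difference of 0.63 ± 0.34 (SE; adjusted p = 0.240, edgeR). Vwf averaged 9.86 ± 7.21 CPM in aggressive and 4.45 ± 0.973 CPM in parental p66Low tumours, a log2 difference of 1.15 ± 0.70 (adjusted p = 0.304). Tek averaged 7.13 ± 5.03 CPM in aggressive and 7.53 ± 1.38 CPM in parental p66Low tumours, a difference of -0.08 ± 0.57 log2 units. The p66Low aggressive tumours were uneven. The 2 with lymph node genes had summed levels of the 10 genes of 193 and 227 CPM, and the one without had 97.9 CPM, below all 3 p66Low parental tumours. Without the p66Low aggressive tumour of 97.9 CPM, Pecam1 passed, with a log2 difference of 0.96 (adjusted p = 0.0273), against 17.5% of all genes. Without the 3 lymph node-rich libraries, 6 of the 10 genes changed sign and the median was -0.65.

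In aggressive tumours, p66High had lower fitted means than p66Low for 8 of the 10 genes, by a median of -0.28 log2 units. The median was -0.03 without p66High aggressive replicate 3 and -0.62 without replicate 2 of that group, and -0.11 and -0.55 without p66Low aggressive replicates 2 and 3 in turn. None passed in edgeR, where 21% of genes were called. Only Pecam1 had an unadjusted p under 0.05, against 33.4% of all genes. DESeq2 called Pecam1, against 25.3% of all genes, and limma-voom called 0, against 18.8%. Pecam1 averaged 29.0 ± 11.6 CPM in p66High and 51.8 ± 24.1 CPM in p66Low aggressive tumours, a log2 difference of -0.83 ± 0.34 (SE; adjusted p = 0.110, edgeR). Tek averaged 3.28 ± 2.17 CPM in p66High and 7.13 ± 5.03 CPM in p66Low aggressive tumours, a difference of -1.09 ± 0.59 log2 units (adjusted p = 0.223). Vwf differed by -1.47 ± 0.71 log2 units (adjusted p = 0.172). The groups overlapped for all 10 genes. Leaving out the 3 lymph node-rich libraries left 1 p66Low aggressive tumour, assumed to vary like the other groups, and turned the sign of 8 of the 10, with a median of 0.51.

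The difference between the 2 selection responses was tested as the interaction. It is the change with selection in p66High tumours minus that in p66Low tumours, and it was negative for all 10, by a median of -0.94 log2 units, beside 0.05 over all genes. With edgeR no gene passed, against 12.4% of all genes, and 4 had an unadjusted p under 0.05, Pecam1, Egfl7, Tek and Vwf, against 28.5%. Vwf had the largest, -3.08 ± 1.00 log2 units (SE; adjusted p = 0.0663, edgeR), followed by Tek at -2.10 ± 0.82 (0.118), Pecam1 at -1.37 ± 0.48 (0.0879) and Egfl7 at -1.20 ± 0.42 (0.0851). DESeq2 called these 4, against 18.2% of all genes in that fit, and limma-voom called 0, against 8.92%. Without the third p66Low aggressive tumour, 5 passed in edgeR, Pecam1, Egfl7, Tek, Eng and Vwf, against 16.4% of all genes. Without the first p66High aggressive tumour, Vwf passed, against 10.2% of all genes. The median was -0.51 without the second p66Low aggressive tumour. Without the 3 lymph node-rich libraries the median was -0.09.

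Averaged over selection, p66High against p66Low gave 7 positive differences of 10, with a median of 0.12 log2 units and no gene called by edgeR, DESeq2 or limma-voom. Esam alone had an unadjusted p under 0.05, against 29.4% of all genes. The share of all genes called was 15.6% with edgeR, 20.8% with DESeq2 and 15.9% with limma-voom. Averaged over p66 level, aggressive against parental gave 10 negative differences with a median of -0.36. EdgeR and limma-voom called none, against 10.8% and 9.97% of all genes. DESeq2 called Egfl7 and Tek, against 17% of all genes. An unadjusted p under 0.05 was found for 4, Egfl7, Tek, Emcn and Esam, against 26.9%.

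A list of 25 other endothelial genes, among them Kdr and Flt1, the receptors for Vegfa, and Ptprb, had 23 positive and 2 negative differences in p66High against p66Low parental tumours, with a median of 0.48 log2 units. EdgeR called none, against 8.08% of all genes. An unadjusted p under 0.05 was found for 3, a smaller share than the 22.9% of all genes, and DESeq2 called 2, against 13.1%. In aggressive against parental p66High tumours, 24 of the 25 were negative, with a median of -0.70. EdgeR called none there, against 5.94% of all genes, 16 had an unadjusted p under 0.05, against 22.7%, and DESeq2 called 5, against 11.7%. In aggressive against parental p66Low tumours, 2 rose, S1pr1, a receptor for sphingosine-1-phosphate that lymphocytes also carry, and Ecscr, against 16.6% of all genes called. The same 2 fell in p66High against p66Low aggressive tumours, against 21%. Neither S1pr1 nor Ecscr passed in either comparison without the 3 lymph node-rich libraries, and S1pr1 then differed by -0.00 and 0.01 log2 units. Over the 12 tumours, the summed level of these 25 genes had r = 0.983 with the joint pattern of the 10. Taken singly, r ran from -0.519 for Ramp2 to 0.966 for Kdr, with Flt1 at 0.332. For lists of other host cells, r with the 10 was 0.838 for adipocyte, 0.836 for fibroblast, 0.701 for mural cell and 0.444 for leukocyte genes. With group means removed it was 0.975 for the 25 endothelial, 0.951 for leukocyte, 0.916 for fibroblast, 0.848 for mural cell and 0.697 for adipocyte genes. These are descriptions over tumours that share library and scaling.

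**Figure D4:**
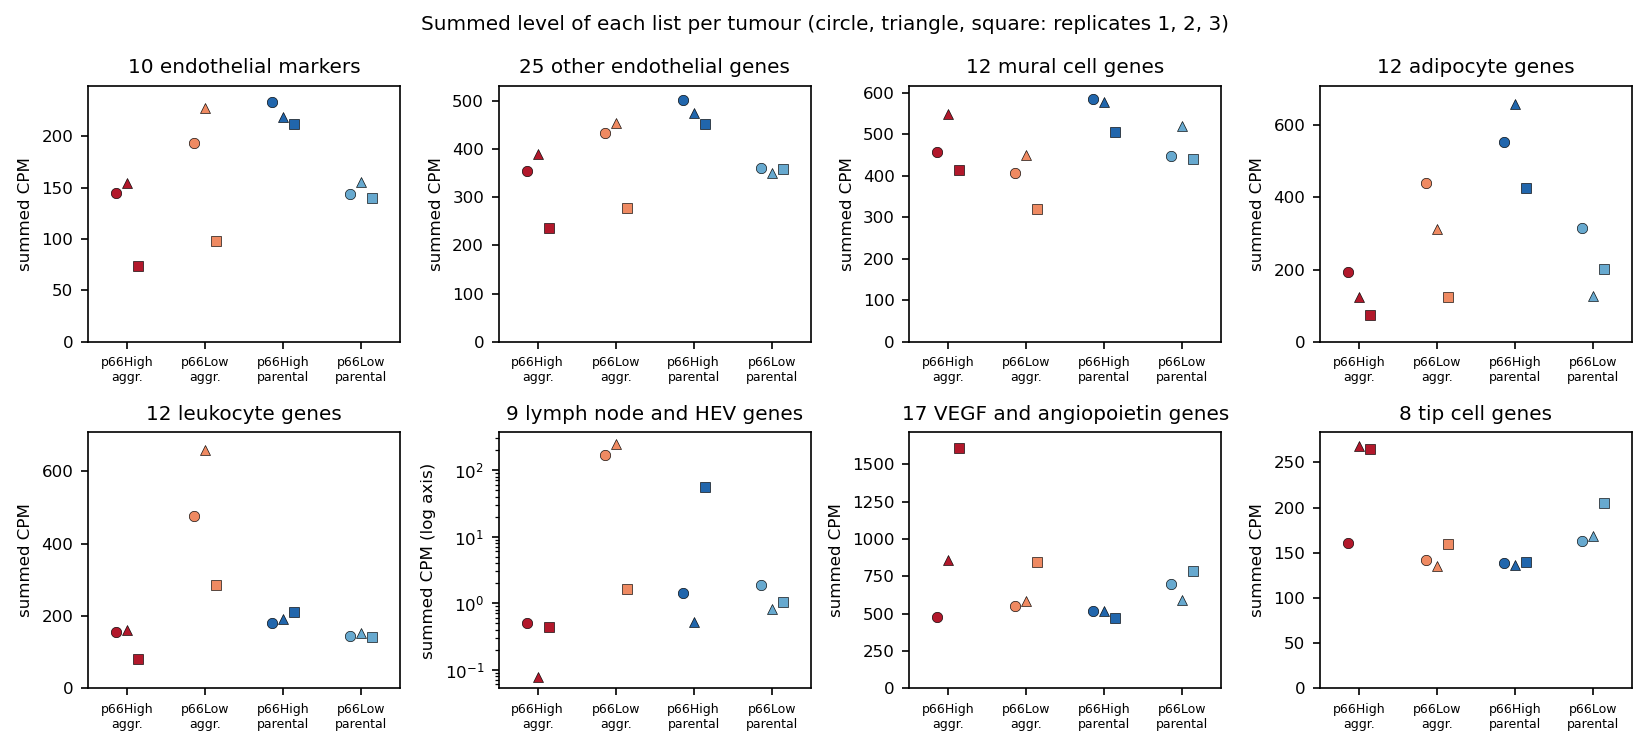
Summed CPM of 8 gene lists in each tumour, by group. The sum of the other endothelial genes follows that of the 10 genes, leukocyte genes are highest in the 3 p66Low aggressive tumours, and lymph node genes are high in 2 of these and in 1 p66High parental tumour.

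Several ligands of the endothelial receptors passed the test. Of 17 genes of VEGF and angiopoietin signalling, 3 rose and 1 fell in p66High against p66Low parental tumours, against 8.08% of all genes called. Vegfc, a ligand of lymphatic and vascular receptors, had 5.82, 4.82 and 5.43 CPM in p66High and 1.76, 1.54 and 1.72 CPM in p66Low parental tumours, a log2 difference of 1.68 ± 0.21 (SE; adjusted p = 0.001, edgeR). No parental tumours overlapped for Vegfc. Angpt1, the agonist of Tek, had 57.0, 106.5 and 70.7 CPM in p66High and 7.59, 33.1 and 23.0 CPM in p66Low parental tumours, a log2 difference of 1.88 ± 0.44 (adjusted p = 0.0218). That call was lost without p66Low parental replicate 3 or p66High parental replicate 2. Dll4, a Notch ligand of sprouting tip cells, fell, with 10.9, 5.84 and 8.65 CPM in p66High and 16.5, 24.96 and 16.1 CPM in p66Low parental tumours (log2 difference -1.17 ± 0.25, adjusted p = 0.0156). It was lost without p66High parental replicate 2 or 3. Without the 3 lymph node-rich libraries, Vegfc passed (adjusted p = 0.00884, edgeR), and Angpt1 (0.0551) and Dll4 (0.0805) did not.

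With selection in p66High tumours, 3 of the 17 rose and 3 fell, against 5.94% of all genes called in either direction. Angpt1 had 9.57, 10.8 and 9.36 CPM in aggressive and 57.0, 106.5 and 70.7 CPM in parental p66High tumours, a log2 difference of -2.97 ± 0.46 (SE; adjusted p = 0.004, edgeR). Vegfc had 2.94, 2.16 and 2.37 CPM in aggressive and 5.82, 4.82 and 5.43 CPM in parental p66High tumours, a log2 difference of -1.10 ± 0.21 (adjusted p = 0.0106). Both passed in every fit that left out 1 tumour. Angpt2, which can act against Angpt1 at Tek, had 10.7, 27.4 and 15.2 CPM in aggressive and 7.44, 7.74 and 6.35 CPM in parental p66High tumours, a log2 difference of 1.31 ± 0.29 (adjusted p = 0.0215). It was lost without any 1 of the p66High parental tumours or p66High aggressive replicate 2. Of 8 tip cell genes, all had positive differences with selection in p66High tumours, with a median of 0.62, and 2 rose, Angpt2 and Esm1, against the same 5.94%. Esm1 had 21.01, 42.1 and 26.9 CPM in aggressive and 10.8, 11.6 and 8.96 CPM in parental p66High tumours (log2 difference 1.52 ± 0.29, adjusted p = 0.0113). It was lost, at 0.0505, without p66High parental replicate 3. In the fit with the lymph node-rich libraries left out, Angpt1 (adjusted p = 0.0167, edgeR), Vegfc (0.048) and Esm1 (0.0278) passed and Angpt2 (0.0964) did not.

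**Figure D5:**
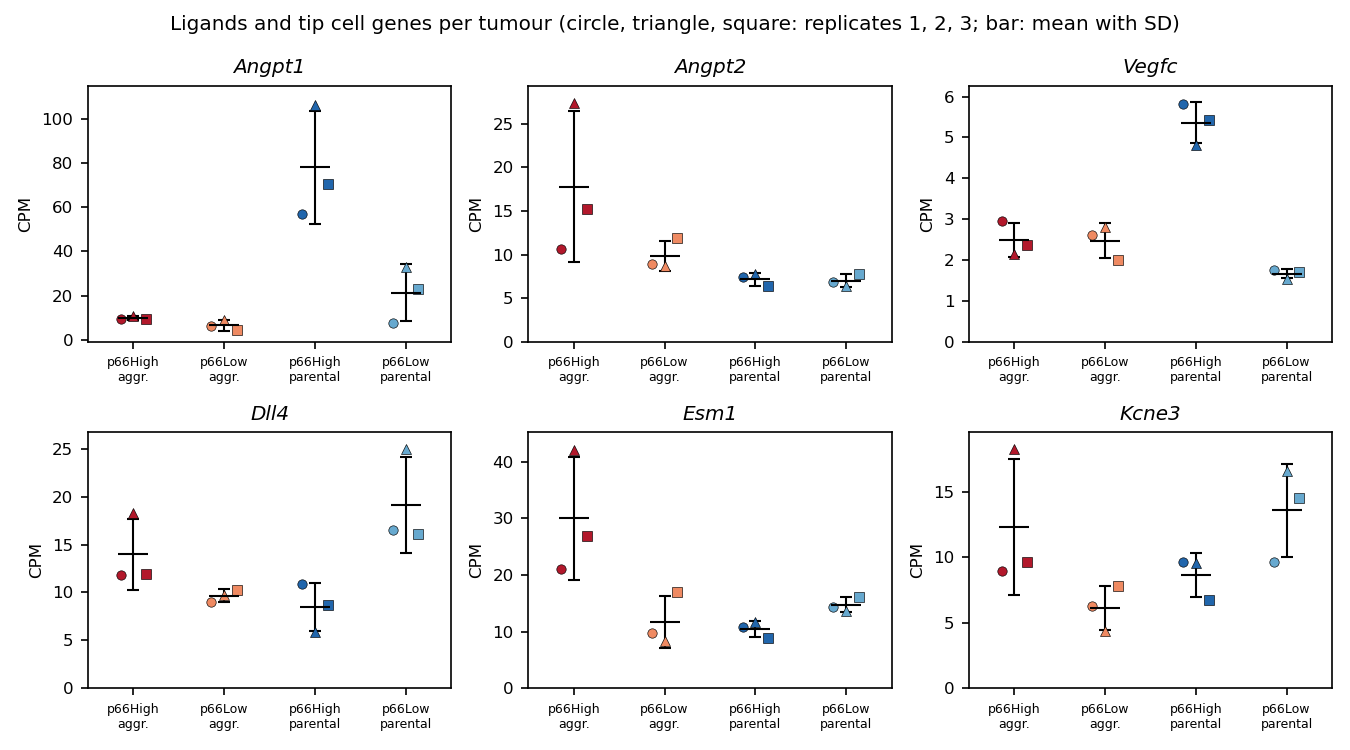
CPM of Angpt1, Angpt2, Vegfc, Dll4, Esm1 and Kcne3 in each tumour, by group. Angpt1 is highest in p66High parental tumours and Angpt2 and Esm1 are highest in p66High aggressive tumours.

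In p66Low tumours, 2 of the 17 signalling genes fell with selection, Dll4 and Angpt1, lost in 3 and in 4 of the 12 fits that left out 1 tumour. That share is below the 16.6% of all genes called. In aggressive tumours, p66High against p66Low gave 1 that rose and 1 that fell, and 4 of the 8 tip cell genes rose, against 21% of all genes called, Esm1 among them (log2 difference 1.35 ± 0.29, adjusted p = 0.00696, edgeR). Esm1 did not pass there without the lymph node-rich libraries (adjusted p = 0.205). Vegfa, the main driver of sprouting, was chosen here after its values were seen. It had 156, 382 and 1135 CPM in p66High aggressive, 200, 232 and 529 CPM in p66Low aggressive, 92.4, 86.4 and 85.8 CPM in p66High parental and 330, 198 and 359 CPM in p66Low parental tumours. The tumours with the most Vegfa were the third ones of both aggressive groups, which were lowest in the 10 genes. Over all 12 tumours, Vegfa had r = -0.910 with the joint pattern of the 10 genes, a description with no test.

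Other vascular lists moved less evenly. Of the called genes named from them here, Sema3g had r = 0.799 with the joint pattern of the 10 genes over 12 tumours. For the other called genes, r ran only from -0.27 for Sema3d to 0.26 for Mcam. Over whole lists, called or not, r ran from -0.25 for Hey1 to 0.863 for Sox17 among arterial genes. Among venous genes it ran from -0.817 for Ephb4 to 0.915 for Aplnr. The range was -0.36 for Kcnj8 to 0.926 for Acta2 among mural cell genes, and -0.27 for Sema3d to 0.733 for Lyve1 among lymphatic genes. Hey1 averaged 170 CPM and Notch3 128 CPM over the 12 tumours. Whether these genes were read in vessel cells was not tested. Of 8 arterial genes, 1 rose in p66High against p66Low parental tumours (8.08% of all genes called) and 1 fell with selection in p66High tumours (5.94%), in both cases Sema3g, lost in 6 and in 10 of the 12 fits that left out 1 tumour. In p66High against p66Low aggressive tumours 2 arterial genes rose, Hey1 and Fbln5 (21% of all genes called), and with selection in p66Low tumours Efnb2 rose and Hey1 and Fbln5 fell (16.6%). Of 7 venous genes, 1 fell in p66High against p66Low aggressive tumours, Vcam1 (21% of all genes called), and 2 rose with selection in p66Low tumours, Vcam1 and Nr2f2 (16.6%), of which Nr2f2 was lost in 5 of those fits. Of 12 mural cell genes, which mark pericytes and vascular smooth muscle, the median log2 difference was 0.27 in p66High against p66Low parental tumours and -0.35 with selection in p66High tumours. Of these 12, Notch3 and Mcam rose in p66High against p66Low aggressive tumours (21% of all genes called) and fell with selection in p66Low tumours (16.6%). For the 12 mural cell genes, those counts are below or near the shares over all genes. Of 8 lymphatic endothelial genes, Sema3d rose in p66High against p66Low parental tumours and with selection in p66High tumours, by 1.25 ± 0.25 and 2.18 ± 0.25 log2 units. It was the only one of the 8 called in either, against 8.08% and 5.94% of all genes. With selection in p66Low tumours 2 of the 8 rose (16.6% of all genes called). In p66High against p66Low aggressive tumours 1 rose and 1 fell (21%). The interaction was called for 1, Tbx1, which averaged only 0.199 CPM (12.4%).

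Markers of other cells differed between groups beside the 10 genes. The summed level of leukocyte genes was 82.2 to 160.3 CPM in p66High aggressive, 287 to 658 CPM in p66Low aggressive, 179.9 to 210.0 CPM in p66High parental and 141 to 153 CPM in p66Low parental tumours, and 11 of 11 tested fell in p66High against p66Low aggressive tumours, against 21% of all genes called. Of 9 lymph node genes tested, 4 rose with selection in p66Low tumours, against 16.6%, and 5 fell in p66High against p66Low aggressive tumours, against 21%. The summed adipocyte genes were 73.9 to 195 CPM in p66High aggressive, 125 to 439 CPM in p66Low aggressive, 425 to 658 CPM in p66High parental and 126 to 315 CPM in p66Low parental tumours. Of 12 adipocyte genes, all were positive in p66High against p66Low parental tumours, with a median log2 difference of 1.73, and 1 rose, a share near the 8.08% of all genes. All 12 were negative with selection in p66High tumours, with a median of -2.52, and 4 fell, against 5.94%. Both medians are larger in size than the 0.56 and -0.71 of the 10 endothelial genes. For fibroblast genes the range was 1503 to 3804 CPM in p66High aggressive, 2031 to 6564 CPM in p66Low aggressive, 3003 to 4404 CPM in p66High parental and 2556 to 3188 CPM in p66Low parental tumours. Of these 10 genes, 1 was called, lower in p66High against p66Low aggressive tumours, against 21% of all genes. Their median log2 difference was 0.59 in p66High against p66Low parental tumours, with 9 of 10 positive, and -0.59 with selection in p66High tumours, with 9 of 10 negative. Platelet genes summed to 13.1 to 19.1 CPM and red blood cell genes to 48.3 to 196 CPM over all tumours. Of 4 platelet genes tested, 1 was called, higher with selection in p66Low tumours, against 16.6% of all genes. The 5 red blood cell genes tested had a median log2 difference of 0.47 in p66High against p66Low parental tumours and -0.05 with selection in p66High tumours. The 9 tumour epithelial genes summed to 2258 to 2984 CPM in p66High aggressive, 2271 to 3418 CPM in p66Low aggressive, 2276 to 2728 CPM in p66High parental and 2708 to 3212 CPM in p66Low parental tumours. Their r with the 10 genes was -0.576, and -0.786 with group means removed. Of the 9, 1 rose in p66High against p66Low parental tumours, against 8.08%, and 3 fell in aggressive tumours, against 21%. With selection, 2 fell in p66High tumours, against 5.94%, and 1 rose in p66Low tumours, against 16.6%. The part of these cells in the results for the 10 genes was not tested.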

How the data were processed

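Bulk tumour RNA was sequenced in 12 samples. Ribosomal RNA was removed from total RNA before a stranded library was built, per the labels' protocols. The values are the authors' deposited read counts, whole numbers for each gene with no normalization. The submitters' processing notes list Trimmomatic (0.32), STAR (2.3.0e), featureCounts (1.4.4) and the mm10 build. Which annotation and strand setting were used, and how multiply mapped reads were treated, the sources used here do not give.

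The count test was edgeR 4.0.16 (R 4.3.3): filterByExpr, TMM scaling, a quasi-likelihood F-test over all 12 tumours in 4 groups and Benjamini-Hochberg adjustment over 19370 genes, with a threshold of 0.05. The standard error is the absolute log2 difference over the square root of F. Of 39017 genes, 37607 matched GENCODE M21. Correlations used log2 CPM with a prior count of 2. The fit was tested on simulated counts. Alternatives were DESeq2 1.42.0, limma-voom (limma 3.58.1), other scalings and filters, fits of only the groups compared, summing of tumours whose titles share a number, leaving out each tumour, and leaving out 3 libraries with more than 20 summed CPM of lymph node genes.

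The 10 genes, the other lists and the alternatives were chosen with earlier results of these data known. Named from each list were at most 3 called genes with the smallest p in a comparison, and Vegfa outside that rule. No label tells whether the tumours within a group grew in different mice, and p-values cover only the spread among these samples, which may be technical. Floors cover counting error only.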

Additional observations from a re-analysis of the deposited data

Results flagged for a closer look

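The change with selection differed between p66High and p66Low tumours, by edgeR's interaction test with an adjusted p under 0.05, for 18 of 77 tested genes of the vascular lists, against 12.4% of all genes. Of the 17 with a mean of at least 1 CPM, a minimum chosen after the values were seen, the 13 among the 3 smallest p-values of a list are given. The log2 interaction was positive for Pgf (2.48), Esm1 (1.84), Dll4 (1.71), Kcne3 (1.65), Hey1 (1.43) and Notch3 (0.85). It was negative for Myh11 (-3.05), S1pr1 (-2.27), Sema3g (-1.98), Vcam1 (-1.98), Vegfc (-1.66), Myct1 (-1.30) and Ecscr (-1.14). Of these, Pgf, Esm1, Dll4, Hey1, Vcam1 and Vegfc passed in each of the 12 fits that left out 1 tumour, and the other 7 were lost in 5 to 10 of them. Without the 3 lymph node-rich libraries, which leaves 1 p66Low aggressive tumour, assumed to vary like the other groups, all 13 kept their sign. Their interactions were then 1.70 for Pgf, 1.22 for Esm1, 1.64 for Dll4, 1.16 for Kcne3, 0.83 for Hey1, 0.69 for Notch3, -1.15 for Myh11, -0.43 for S1pr1, -1.17 for Sema3g, -1.47 for Vcam1, -1.35 for Vegfc, -0.96 for Myct1 and -0.90 for Ecscr, and none had an adjusted p under 0.05. None of the 10 endothelial genes passed the interaction test.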

How the results depend on the processing

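With 1 gene called in aggressive against parental p66High tumours, the count was 0 with library size alone or with tumours whose titles share a number summed, and 2 with no filter on low counts (3.76% of all genes called), with DESeq2 (11.7%) or with only the groups compared (7.33%). It ran from 0 to 3 when each tumour was left out, where 2.29% to 7.34% of all genes were called. Egfl7 lost its call with library size alone (log2 difference -1.19, adjusted p 0.0567), with tumours summed (-1.32, 0.147) and without the lymph node-rich libraries (-1.25, 0.0509; edgeR), beside -1.20 with all 12 tumours and TMM. Without the lymph node-rich libraries the log2 difference of Tek was -2.26, beside -2.18 with all 12 tumours. Calls in p66High against p66Low parental tumours went to 4 with only the groups compared (8.39% of all genes called). The interaction gave 1 with no filter (8.04% of all genes called) and 4 with DESeq2 (18.2%). It gave 0 to 5 when each tumour was left out (5.9% to 16.4%). In p66High against p66Low aggressive tumours DESeq2 gave 1 (25.3% of all genes called) and leaving out tumours 0 to 2 (12.3% to 22.5%). In aggressive against parental p66Low tumours leaving out tumours gave 0 to 1 (7.73% to 17.5%). Aggressive against parental averaged over p66 level gave 2 with DESeq2 (17% of all genes called). The cause was not tested.

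Without the lymph node-rich libraries, signs turned for Pecam1 (0.21), Tek (0.95) and Vwf (0.33) in p66High against p66Low aggressive tumours, for Pecam1 (-0.41) and Vwf (-0.64) in aggressive against parental p66Low tumours, and for Cdh5 (0.047), Emcn (0.11) and Esam (0.033) in the interaction. Tek in aggressive against parental p66Low tumours was 0.059 with library size alone and -0.68 to 0.39 when each tumour was left out. Cdh5 in p66High against p66Low parental tumours was -0.0013 to 0.31 when each tumour was left out. No sign changed for any of the 10 genes in aggressive against parental p66High tumours under any alternative. No paired analysis was possible because the labels give no number that ties tumours across groups.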
